A study of Bos taurus and Bos grunniens and Bubalus bubalis with 15 samples.

Results

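Cytosolic ribosomal proteins are the protein parts of the ribosomes that translate nuclear-encoded messenger RNA, and their transcripts were followed across the longissimus dorsi, the long back muscle, of 15 animals. The genes were chosen by symbol: probe sets with 1 gene symbol that begins RPL or RPS followed by a digit, or that is RPSA, RPLP0, RPLP1 or RPLP2, leaving out symbols that begin RPS6K or end in L1. This gave 67 genes with 94 probe sets, of 9155 genes with 13292 such probe sets in all, and each gene was represented by the probe set with the highest mean over the 15 arrays. Of these, 40 code for large-subunit and 25 for small-subunit proteins. The rule also admitted RPS19BP1, which codes for a protein that binds a ribosomal protein, and RPL15P, which the gene table lists as a pseudogene. RPLP1 was not analysed here. The rule left out 10 symbols, among them the S6 kinase genes and the paralogues RPL26L1 and RPL7L1.

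The animals formed 5 groups of 3, with 1 Affymetrix bovine array per animal, and all were slaughtered at 36 months of age. The groups were Guangxi buffalo and Qinghai yak, for which the labels give no sex, and females, castrated males and intact males of the Qinchuan breed of cattle. The cattle shared a similar genetic background and rearing and were born within 30 days of one another. RNA came from pieces of whole muscle, so fewer cells of a type and less RNA per cell cannot be told apart. By the labels, replicate arrays are biological, and p-values measure the spread among them.

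A ribosome joins a small subunit, which reads the messenger, to a large subunit, which makes the peptide bond, and nearly every ribosomal protein is present once in each particle. In mammals the messengers of these proteins begin with a terminal oligopyrimidine (TOP) tract, through which mTORC1 signalling controls their translation together with that of several elongation factors. Skeletal muscle also expresses RPL3L, a paralogue found in striated muscle that can take the place of RPL3, a core protein close to the site of peptide bond formation. Muscle protein synthesis depends on how many ribosomes a fibre holds, and the messenger level of a ribosomal protein does not by itself give the number of ribosomes.

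Values are intensities, the brightness of a probe set on a linear scale. Differences are log2 fold changes of intensity with 16 added, given with their standard error (SE) and with an adjusted p from limma over 14409 tested probe sets, and a gene was called where the adjusted p was under 0.05. Said of genes, rose and fell stand for genes called higher or lower in the group named first. Of the 67 genes, 65 passed the filter on dim probe sets. The probe set of RPL37, a large-subunit protein, was dim in every group, with means of 15.4 ± 6.67 in buffalo, 7.12 ± 1.11 in yak and 7.36 ± 2.70 to 9.65 ± 1.51 in the cattle groups (SD, n = 3). That of RPS19, a small-subunit protein mutated in the human disease Diamond-Blackfan anaemia, had means of 67.0 ± 2.16 in buffalo, 47.9 ± 2.63 in yak and 42.9 ± 4.82 to 48.4 ± 3.37 in the cattle groups, with every buffalo array above every other array. Neither was tested.

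The tissue and the arrays bear on all that follows. Probe sets of skeletal muscle were among the brightest on the arrays, with a mean of 19110 for ACTA1, the skeletal actin. The summed intensity of 10 macrophage markers, of 12 listed, was 949 to 1365 in buffalo, 1462 to 1580 in yak, 1181 to 2141 in females and 2206 to 3595 in castrated males, against 7237 to 36604 in intact males, with intact male 1 the highest. The sum of 9 fibroblast markers was 3893 to 6370 in buffalo, 4838 to 6113 in yak, 8692 to 10656 in females and 11578 to 12354 in castrated males, against 32827 to 44573 in intact males. Other markers also moved between species. In buffalo against cattle 5 of 9 muscle fibre, 2 of 4 smooth muscle and pericyte and 2 of 4 adipocyte markers fell. Of the same lists 1, 0 and 1 rose, beside 28.4% lower and 23% higher of all tested probe sets. In yak against cattle 3, 1 and 2 of these markers fell and 0 rose, beside 15.9% and 13.2%. Of the tested endothelial markers only CLDN5 was called in buffalo against cattle (-1.21). Of the tested T, B and NK cell markers CD3E (0.28) and NKG7 (0.33) rose there. None of the markers in these last lists was called in yak against cattle. The summed muscle fibre intensity was 104273 to 109827 in buffalo and 106159 to 116987 in yak, against 104905 to 127297 in cattle, where intact male 1 was lowest. The sum of 4 adipocyte markers was 816 to 1212 in buffalo and 319 to 705 in yak, against 505 to 4546 in cattle. That of 5 smooth muscle and pericyte markers was 3241 to 4085 in buffalo and 2403 to 4632 in yak, against 3196 to 6096 in cattle. Actin signal at the 3′ end over that at the 5′ end, which grows as RNA breaks, was 1.42 to 1.73 in buffalo, 1.49 to 1.93 in yak and 1.17 to 1.48 in cattle, again with intact male 1 highest among cattle. The same ratio for GAPDH was 1.215 to 1.504 in buffalo and 1.203 to 1.257 in yak. In cattle it was 1.129 to 1.339, a range that held all 3 yak. The bright end of the buffalo arrays lay lower: the 99th percentile of intensity was 4372 to 4553 in buffalo, against 4935 to 5439 on the 12 other arrays. The part of these features in the results was not tested, and neither was how well yak and buffalo transcripts bind probes made to cattle sequence.

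The ribosomal protein probe sets were bright and varied little. The mean intensity of the 65 tested genes had a median of 7046 and ranged over 600.5 to 10796, against a median of 196.8 over all tested probe sets, and 55 of the 65 lay above 5000. Intensities of different probe sets depend on the probes as well as on the transcript, so they are not ranked here as levels. The brightest single value was 13065, for RPS2, a small-subunit protein near the entry of the messenger channel, in intact male 3, and the array maxima of 19029 to 20615 lay above it. The SD over the 15 arrays on the log2 scale had a median of 0.18 among these genes and 0.30 among all tested probe sets, and the median SD within groups was 0.10 and 0.19.

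RPL35, RPL21 and RPS3A had the smallest spread over the 15 arrays. RPL35, which sits by the exit of the peptide tunnel, had intensities of 10339, 10222 and 9434 in buffalo, 10740, 10828 and 11130 in yak, 10140, 10350 and 9769 in females, 9863, 9774 and 10035 in castrated males and 10109, 10098 and 10072 in intact males. Its SD on the log2 scale was 0.06, and all 3 yak values lay above all cattle values. RPL21 of the large subunit and RPS3A of the small subunit had SDs of 0.06 and 0.07. The largest spread belonged to RPL3L at 0.53, RPS19BP1 at 0.51 and RPS9, a small-subunit protein, at 0.48.

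**Figure D1:**
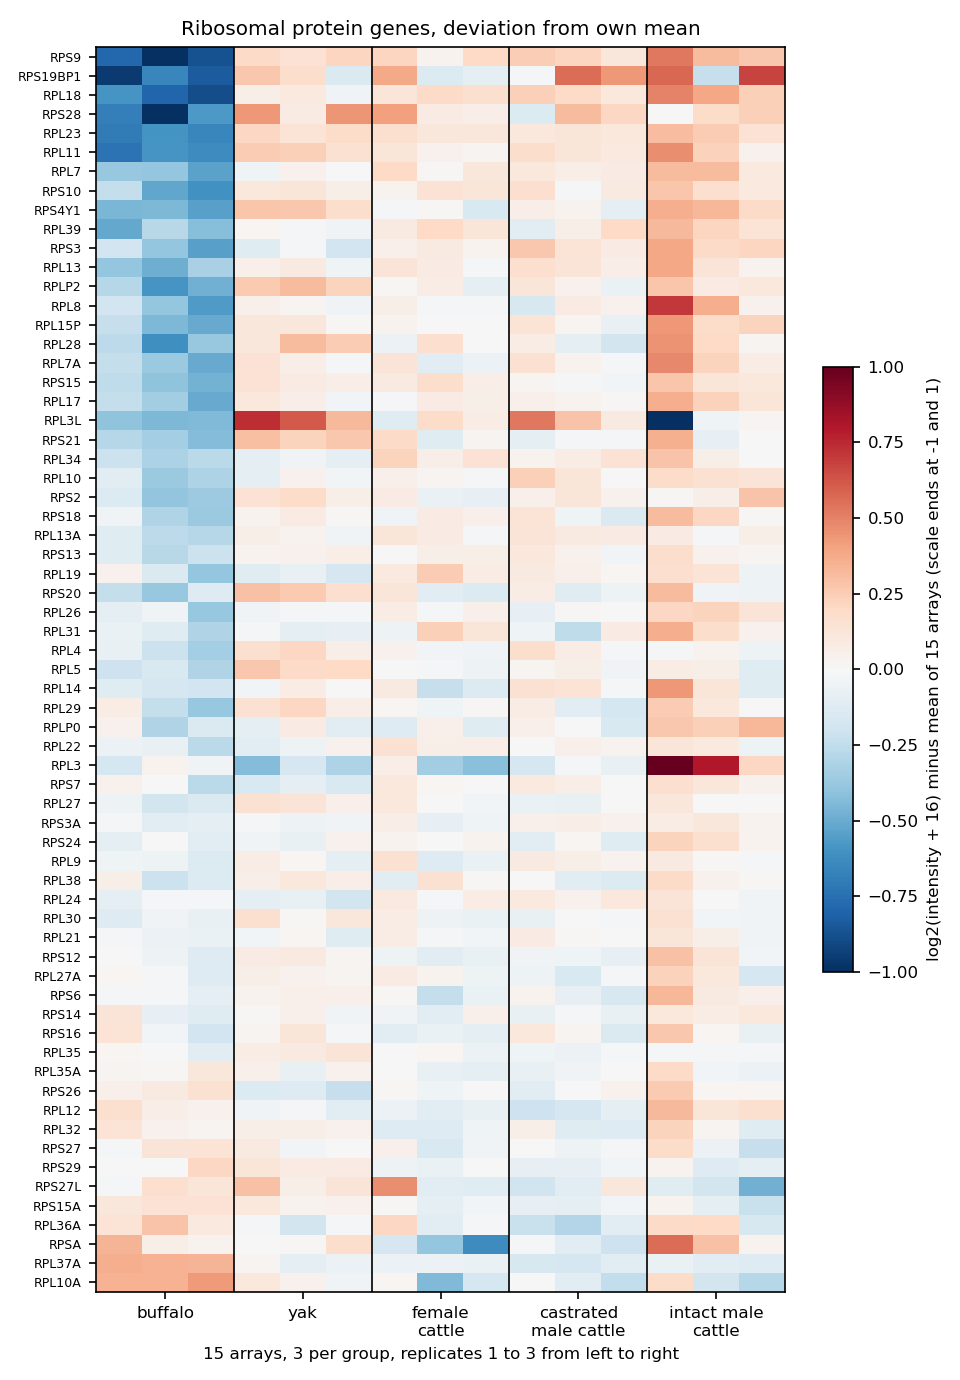
Each row is 1 of the 65 tested genes and each column 1 of the 15 arrays, with buffalo, yak, female, castrated male and intact male cattle from left to right. Colour gives log2(intensity + 16) minus the gene's mean over the arrays, as deposited, and ends at -1 and 1. Rows are ordered by the buffalo minus cattle fold change, so the blue block at the upper left holds RPS9, RPL18 and the other genes lower in buffalo, and intact male 1 is the first column of the rightmost block.

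A summary per array was the median over the 65 genes of the deviation from each gene's own mean, on the log2 scale. It was -0.10, -0.18 and -0.27 in buffalo, 0.06, 0.06 and 0.01 in yak, 0.05, -0.01 and -0.02 in females, 0.05, 0.02 and -0.01 in castrated males and 0.25, 0.10 and 0.03 in intact males. All 3 buffalo lay below every other animal. In intact male 1, 59 of the 65 genes stood above their mean. After quantile normalisation, which gives every array the same distribution of intensities, the buffalo values were 0.01, -0.04 and -0.08. Of these the first 2 lay within the range of the 12 other arrays, -0.07 to 0.19, and buffalo 3 lay just below it. Intact male 1 stayed at 0.19.

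**Figure D2:**
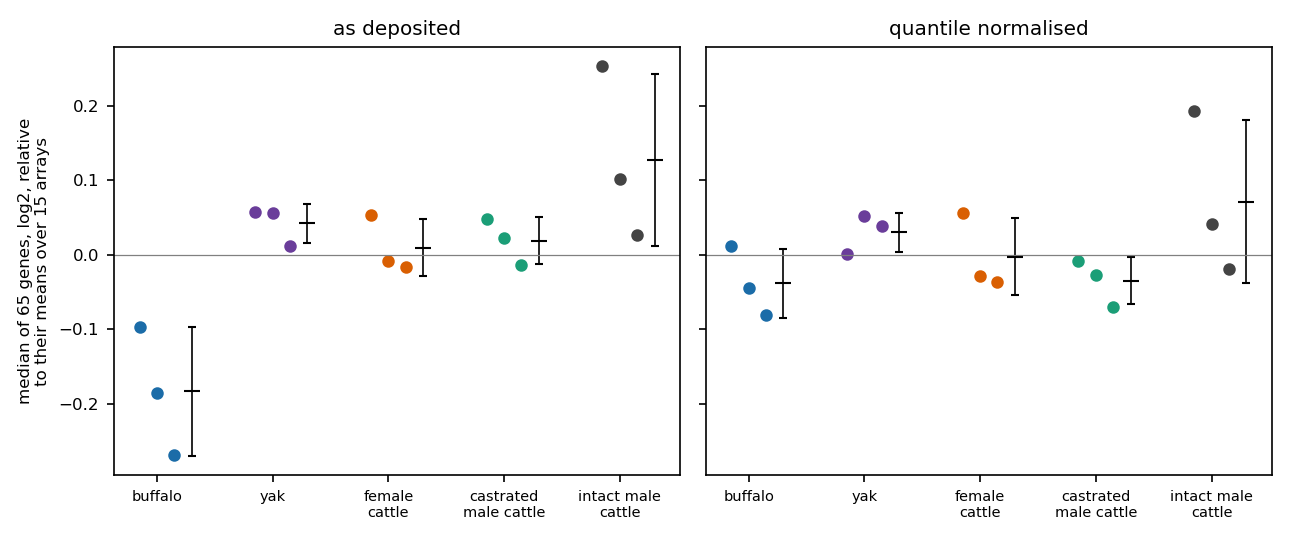
Points are arrays, and the y axis is the median over 65 ribosomal protein genes of log2(intensity + 16) relative to each gene's mean over 15 arrays. Black dashes and bars are group means ± SD (n = 3). As deposited (left) the buffalo arrays lie at -0.10 to -0.27, below all others, and after quantile normalisation (right) at 0.01 to -0.08, with buffalo 3 still the lowest array.

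The submitters set castrated males, females and intact males side by side to find genes that differ with sex and castration. In castrated against intact males no ribosomal protein gene was called by limma, 0 higher and 0 lower of 65, beside 0.625% and 0.84% of all tested probe sets. At an unadjusted p under 0.05, 1 was higher and 12 were lower of 65, beside 9.27% and 11.2% of all tested probe sets. The median log2 fold change of the 65 was -0.11, beside 0.00 for all tested probe sets, and 55 of 65 were below 0. In 18 of the 65 genes the 3 castrated males all lay below the 3 intact males, and in 1 gene all above, where 13.5% and 11.3% of all tested probe sets did so. Without intact male 1, the array with the highest macrophage sum, the median was -0.04. It was -0.11 after quantile normalisation, again with 0 called, beside 0.791% higher and 0.826% lower of all tested probe sets.

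The gene with the smallest p between castrated and intact males was RPL12, which lies at the base of the stalk that recruits elongation factors. Its intensities were 5860, 6023 and 6328 in castrated males and 8453, 7341 and 7545 in intact males (a difference of -0.36 on the log2 scale, SE 0.08, adjusted p = 0.0707 in limma). The groups did not overlap. RPLP0, the protein that anchors the stalk, had 7025, 6779 and 6102 in castrated males, against 8181, 8024 and 8532 in intact males (-0.31, SE 0.09, adjusted p = 0.108), also without overlap. RPLP2, one of the acidic proteins at the tip of the stalk, had -0.12 (SE 0.09) and groups that overlapped.

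RPL3 had the largest negative fold change between castrated and intact males. Its intensities were 2462, 2738 and 2618 in castrated males, against 5693, 4811 and 3186 in intact males (-0.77 as a log2 fold change, SE 0.21, adjusted p = 0.107). The intact males did not overlap the castrated males but spread widely, with intact male 3 closest to them. Without that array RPL3 passed (adjusted p = 0.0174 in limma), as 1 of 3 genes of 65 then called lower, beside 4.55% of all tested probe sets. Its muscle paralogue RPL3L, not called, had a fold change of the other sign, with 2759, 2321 and 2026 in castrated males, against 716, 1851 and 1940 in intact males (0.77, SE 0.34, adjusted p = 0.237). The groups did not overlap, and intact male 1 lay farthest away, with the lowest RPL3L and the highest RPL3 of the 15 arrays.

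In females against intact males, 2 of 65 genes fell and 0 rose, beside 3.37% and 2.12% of all tested probe sets, so the share called was close to that of all probe sets. The 2 were RPL3 and RPSA, and both were also called lower after quantile normalisation, beside 3.43% of all tested probe sets lower and 2.91% higher. The median over the 65 was -0.11, beside 0.01 for all tested probe sets, and -0.03 without intact male 1. The 3 females lay below the 3 intact males in 17 of 65 genes and above them in 1, beside 17.4% and 15.7% of all tested probe sets.

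RPL3 fell to 2895, 2169 and 2059 in females, against 5693, 4811 and 3186 in intact males, with no overlap (-0.91 on the log2 scale, SE 0.21, adjusted p = 0.043). RPSA, a small-subunit protein that is also known as a laminin receptor at the cell surface, fell to 4559, 3922 and 3309 in females, against 7558, 6261 and 5234 in intact males, again with no overlap (-0.69, SE 0.16, adjusted p = 0.0406). Neither call held in limma when intact male 1, intact male 2 or any 1 of the females was left out, where adjusted p lay between 0.0578 and 0.135. Without intact male 3, 5 of 65 genes were called lower, beside 8.87% of all tested probe sets. The fold changes kept their sign in each of these, with -0.73 to -1.06 for RPL3 and -0.55 to -0.80 for RPSA.

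Other genes came close. RPS4Y1, named after a human gene on the Y chromosome and coding for a small-subunit protein, had 6747, 6846 and 6129 in females, so its probe set was bright without a Y chromosome, against 8749, 8546 and 7769 in intact males (-0.34, SE 0.09, adjusted p = 0.0531). RPLP0 had 6213, 7055 and 6241 in females, against 8181, 8024 and 8532 in intact males (-0.34, SE 0.09, adjusted p = 0.0541). RPL12 had a log2 fold change of -0.28 (SE 0.08, adjusted p = 0.0726). In each of these 3 genes all females lay below all intact males. RPS6, the protein that S6 kinase phosphorylates when mTORC1 is active, had -0.26 (SE 0.11, adjusted p = 0.156). RPL3L had 1747, 2173 and 2004 in females, which overlapped the intact males, with a log2 fold change of 0.52 (SE 0.34, adjusted p = 0.343).

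Between females and castrated males no gene was called by limma, 0 of 65 in either direction, with 0 higher and 0 lower at an unadjusted p under 0.05 (3.98% and 3.57% of all tested probe sets), in a contrast where 0.0208% of all tested probe sets were called. The median log2 fold change was -0.01, and 0.03 after quantile normalisation. The smallest p belonged to RPL36A of the large subunit, with 5111, 4130 and 4403 in females and 3806, 3610 and 4101 in castrated males (0.24, SE 0.13, adjusted p = 0.721), whose groups did not overlap. RPSA had -0.28 (SE 0.16, adjusted p = 0.725), and its groups overlapped. Groups did not overlap in 4 genes higher in females and 0 lower, beside 8.9% and 8.56% of all tested probe sets.

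**Figure D3:**
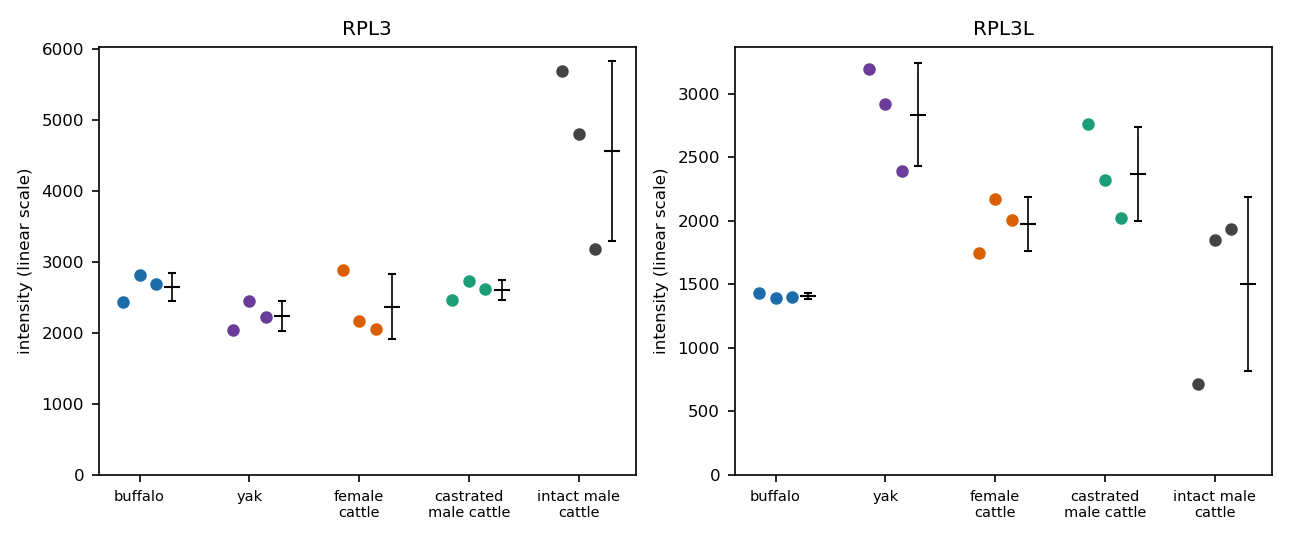
Intensity on a linear scale of RPL3 (left) and its striated-muscle paralogue RPL3L (right) in the 5 groups. Points are arrays, and black dashes and bars are group means ± SD (n = 3). Intact males 1 and 2, at 5693 and 4811, stand above all other arrays for RPL3, and intact male 1 stands below all others for RPL3L at 716.

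The submitters also compared cattle muscle with that of yak and buffalo, and here cattle is the mean of the 3 cattle group means. In yak, 1 of 65 genes rose and 6 fell, beside 13.2% and 15.9% of all tested probe sets, so a smaller share of ribosomal protein genes was called than of all probe sets. Their median log2 fold change was -0.01, beside -0.02 for all tested probe sets. Yak and cattle did not overlap in 4 genes higher and 7 lower in yak, beside 8.83% and 10.4% of all tested probe sets. After quantile normalisation 2 rose and 3 fell, beside 14.5% and 13% of all tested probe sets. The calls rested on small differences. Without yak 1, 0 rose and 0 fell, beside 6.97% and 8.86% of all tested probe sets. Without yak 2, 1 rose and 1 fell, beside 8.24% and 9.21%, and without yak 3, 1 rose and 0 fell, beside 11.6% and 12.4%. Without intact male 1, 9 rose and 5 fell, beside 14.4% and 17.8%.

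RPL5, which with RPL11 carries the small ribosomal RNA of the large subunit and in mammals can bind MDM2, the inhibitor of p53, rose in yak. Its intensities were 9740, 9195 and 9270 in yak, above all cattle, against 8078, 7965 and 7800 in females, 8230, 8387 and 7888 in castrated males and 8501, 8403 and 7437 in intact males (0.22 on the log2 scale, SE 0.06, adjusted p = 0.0105). It lost the call only without yak 1 (adjusted p = 0.0684) among the 20 alternatives. RPL11 itself had 0.07 (SE 0.08) and overlapped cattle.

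Of the 6 that fell in yak, RPL3 had the largest change (-0.43, SE 0.15, adjusted p = 0.049), with 2042, 2455 and 2223 in yak, which overlapped the females. It was called in 5 of the 20 alternatives, the fewest of the 6, with -0.15 where only castrated males and females stood for cattle and -0.19 on the mean of its probe sets. RPS3, a small-subunit protein at the entry of the messenger channel, had 6659, 7130 and 6341 in yak, against 7414 to 9455 in cattle, and did not overlap them (-0.27, SE 0.08, adjusted p = 0.0163). The other 4 had log2 fold changes of -0.20 for RPS7, -0.19 for RPL34, -0.19 for RPS26 and -0.17 for RPL24, all without overlap with cattle. RPS7, RPS26 and RPL24 code for proteins of the small subunit, the small subunit near the exit of the messenger and the large subunit next to the subunit interface, and RPL34 for another large-subunit protein. Each of the 4 was called in 7 to 12 of the 20 alternatives, and RPS3 in 17.

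RPL3L was brighter in yak than in most cattle, with 3193, 2921 and 2394 in yak, against 1747 to 2173 in females, 2026 to 2759 in castrated males and 716 to 1940 in intact males (0.60 on the log2 scale, SE 0.23, adjusted p = 0.0687). It passed when intact male 1, 2 or 3 was left out, with adjusted p between 0.0101 and 0.0452, and with only castrated males and females as cattle (0.39, adjusted p = 0.0374). RPSA also passed with only castrated males and females as cattle (0.32, adjusted p = 0.0452), and had 0.14 (SE 0.12) with all 3 groups.

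Buffalo against cattle had the most calls. Of 65 genes, 33 fell and 3 rose against cattle, beside 28.4% and 23% of all tested probe sets. The median log2 fold change was -0.22, beside -0.03 for all tested probe sets. Buffalo and cattle did not overlap in 28 genes lower and 3 higher in buffalo, beside 18.3% and 13.8% of all tested probe sets. After quantile normalisation the split was 23 lower and 12 higher, beside 24.2% and 30.6% of all tested probe sets, and the median was -0.03, beside 0.06. Of the 36 genes called as deposited, 26 were also called in the same direction under quantile normalisation, where 35 were called. Without RPS19BP1 and RPL15P the counts were 31 lower and 3 higher of 63.

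Genes of both subunits were among the calls. Of 39 large-subunit genes 20 fell and 2 rose in buffalo, with a median of -0.22, and of 24 small-subunit genes 11 fell and 1 rose, with a median of -0.13, beside 28.4% lower and 23% higher of all tested probe sets. After quantile normalisation the counts were 14 lower and 6 higher for the large subunit and 7 lower and 6 higher for the small one, beside 24.2% and 30.6%, so the small subunit was then near the share of all probe sets. The difference between the subunits was not tested. Over all 20 alternatives, 20 of the 33 lower calls and 3 of the 3 higher calls were made each time.

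RPS9, a small-subunit protein that helps shape the decoding region, had the largest change in buffalo. Its intensities were 2374, 2000 and 2238 in buffalo, against 4775, 4214 and 4726 in females, 4886, 4769 and 4462 in castrated males and 5946, 5113 and 4967 in intact males (-1.14 on the log2 scale, SE 0.08, adjusted p = 1.37e-07). The highest buffalo value was far below the lowest cattle value. RPL18, a large-subunit protein, had 4262, 3705 and 3460 in buffalo, against 6892 to 9051 in cattle (-0.99, SE 0.07, adjusted p = 2.19e-07).

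RPL23 and RPL11, large-subunit proteins that in mammals can bind MDM2, also fell in buffalo. RPL23 had 4607, 4948 and 4768 in buffalo, against 8054 to 9292 in cattle (-0.81, SE 0.05, adjusted p = 5.11e-08). RPL11 had 4179, 4633 and 4507 in buffalo, against 7107 to 9608 in cattle (-0.79, SE 0.08, adjusted p = 2.26e-06). RPL5, the partner of RPL11, fell by 0.22 on the log2 scale (SE 0.06, adjusted p = 0.00499), and after quantile normalisation it had -0.07 and was not called.

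RPS28, a small-subunit protein near the exit of the messenger, had 1658, 1277 and 1797 in buffalo, against 2431 to 3563 in cattle (-0.92, SE 0.14, adjusted p = 8.90e-05). RPL7, of the large subunit, had 4790, 4761 and 4283 in buffalo, against 6272 to 7766 in cattle (-0.58, SE 0.07). RPS10, a small-subunit protein, had 6443, 5320 and 4994 in buffalo, against 7548 to 9216 in cattle (-0.58, SE 0.07). None of these 3 overlapped cattle, and all 3 were also called lower after quantile normalisation, at -0.63 for RPS28, -0.38 for RPL7 and -0.39 for RPS10. RPS19BP1, which is not a ribosomal protein, had 284, 354 and 312 in buffalo, against 482 to 916 in cattle (-1.05, SE 0.19, adjusted p = 0.000547).

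Of the 65 genes, 3 rose in buffalo. RPL10A, which forms the stalk beside the exit site for transfer RNA, had 6455, 6443 and 6818 in buffalo, against 3728 to 5735 in cattle (log2 fold change 0.51, SE 0.11, adjusted p = 0.00129). RPL37A, a zinc-binding large-subunit protein, had 12688, 12509 and 12491 in buffalo, against 8772 to 9454 in cattle (0.45, SE 0.04, adjusted p = 1.87e-06). RPS15A, of the small subunit, had 10007, 10220 and 10222 in buffalo, against 7915 to 9438 in cattle (0.20, SE 0.05, adjusted p = 0.00705). All 3 were free of overlap with cattle, and after quantile normalisation their fold changes were 0.67, 0.51 and 0.31, still called. RPSA, not called as deposited, had 6483, 5328 and 5244 in buffalo and overlapped cattle. It was called higher by limma after quantile normalisation (0.43, adjusted p = 0.00861). The same held with only castrated males and females as cattle (0.40, adjusted p = 0.00818) and without intact male 1 (0.26, adjusted p = 0.0496).

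Of the proteins of the stalk, RPLP2 fell in buffalo, with 5895, 4765 and 5126 in buffalo, against 6725 to 8684 in cattle (-0.51, SE 0.07, adjusted p = 7.27e-05), and was called lower after quantile normalisation too (-0.32). RPLP0 had 6981, 5507 and 6157 in buffalo, which overlapped cattle (-0.19, SE 0.08, adjusted p = 0.0539), and 0.01 after quantile normalisation. RPL12 had 0.10 (SE 0.06, adjusted p = 0.154) and was called higher after quantile normalisation (0.26, adjusted p = 0.00241). RPS6 had 7413, 7393 and 7017 in buffalo and overlapped cattle, with -0.03 (SE 0.07, adjusted p = 0.721).

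Of the paralogue pairs, RPS27 and RPS27L, the second a copy that p53 induces in human cells, were not called in buffalo as deposited (0.12, SE 0.08, and 0.17, SE 0.13) and were both called higher after quantile normalisation (0.22 and 0.40). RPL3 and RPL3L were not called in buffalo under either scale, with -0.18 and -0.39 as deposited. RPL3L was called lower in buffalo without intact male 1 (-0.54, adjusted p = 0.00138) and with only castrated males and females as cattle (-0.60, adjusted p = 0.00157). Its buffalo values were 1436, 1392 and 1399, below every cattle array except intact male 1. RPL10 and RPL39, whose own paralogues are not among the 67, fell by 0.36 and 0.54 on the log2 scale, and RPL36A had 0.21 (SE 0.09, adjusted p = 0.0845). RPS4Y1 had 4941, 4966 and 4660 in buffalo, below all cattle (-0.57, SE 0.06, adjusted p = 7.64e-06). Its second probe set had 1712, 1146 and 1618 in buffalo, within the range of 982 to 1931 in cattle.

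**Figure D4:**
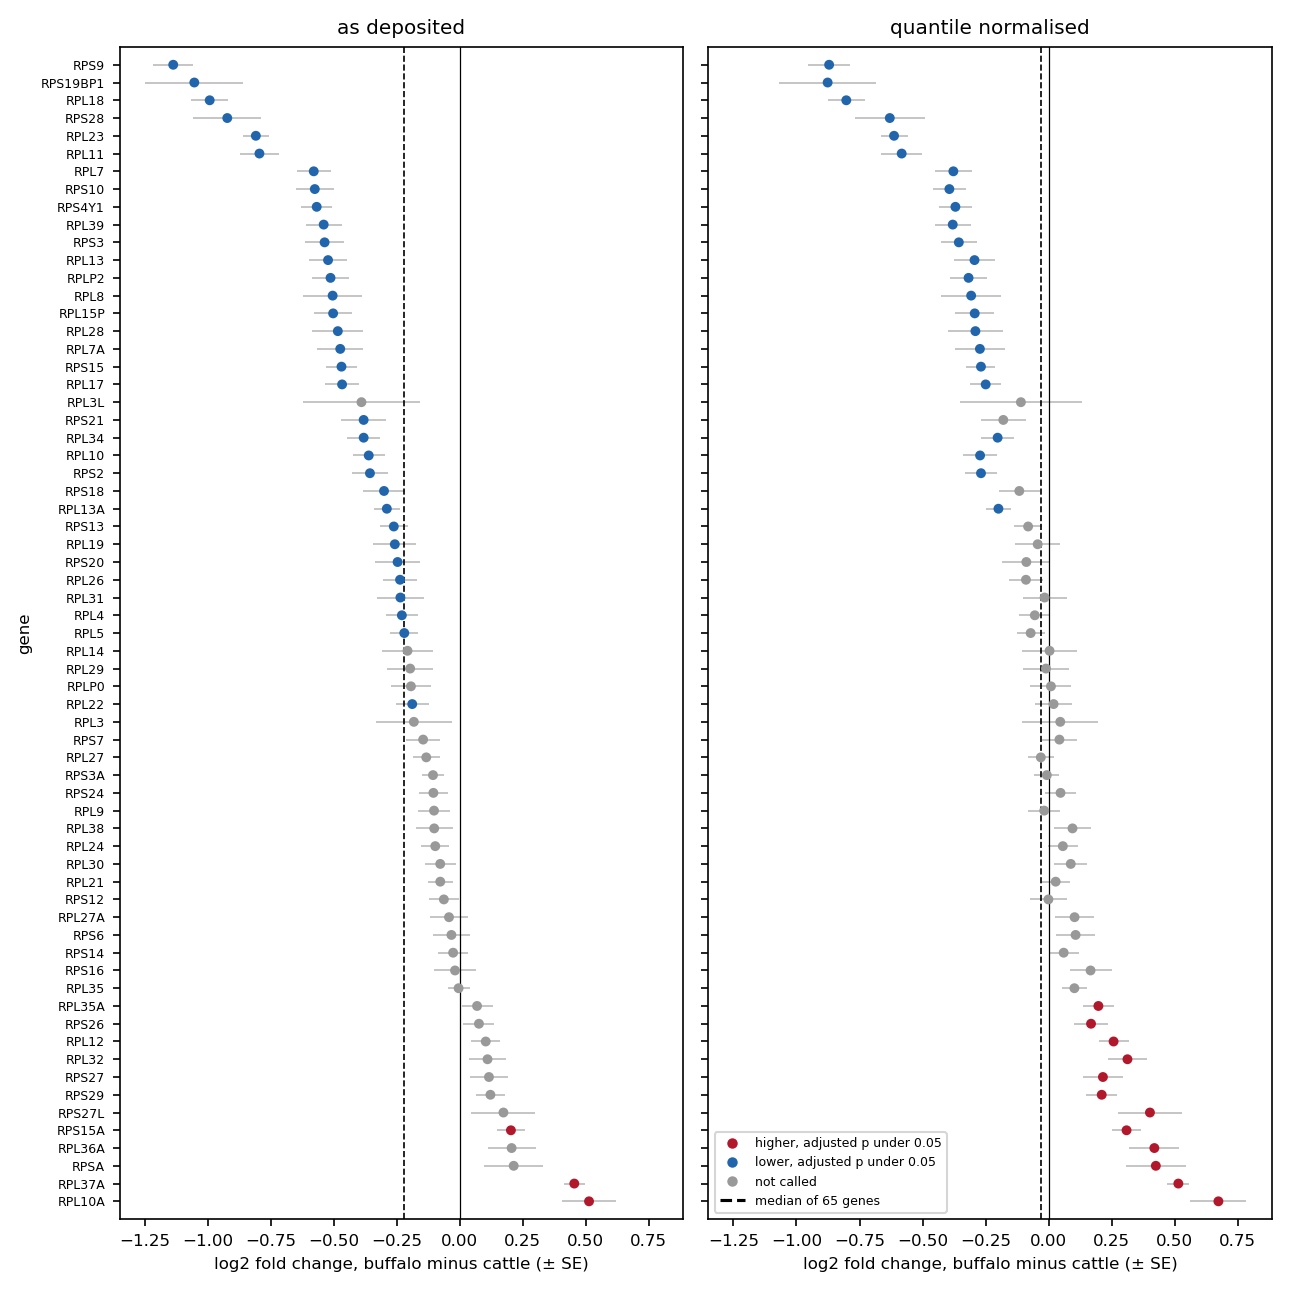
Log2 fold changes of the 65 genes in buffalo minus cattle, as deposited (left) and after quantile normalisation (right), with grey lines for the SE. Blue and red points were called lower and higher, grey points were not called, and the dashed line is the median of the 65. As deposited 33 are lower and 3 higher with a median of -0.22, and after quantile normalisation 23 are lower and 12 higher with a median of -0.03.

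Buffalo were also set against yak, a comparison that shares the buffalo arrays with the last one. Of 65 genes 31 fell and 2 rose in buffalo, beside 22.7% and 19.5% of all tested probe sets, and the median was -0.18, beside 0.01. All 3 buffalo lay below all 3 yak in 37 genes and above them in 6, beside 28.5% and 26.7% of all tested probe sets. After quantile normalisation 20 fell and 8 rose, beside 19.7% and 23% of all tested probe sets, with a median of -0.04, beside 0.06.

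RPS28 had the largest change, with 1658, 1277 and 1797 in buffalo, against 3630, 2827 and 3637 in yak (log2 fold change -1.09, SE 0.17, adjusted p = 0.00019). RPS9 had 2374, 2000 and 2238 in buffalo, against 4709, 4549 and 4790 in yak (-1.08, SE 0.10, adjusted p = 2.23e-06). RPL3L fell to 1436, 1392 and 1399 in buffalo, against 3193, 2921 and 2394 in yak (-0.99, SE 0.29, adjusted p = 0.0136). In all 3 genes the groups were far apart. The RPL3L call was lost after quantile normalisation (-0.74, adjusted p = 0.0576) and without yak 1 (adjusted p = 0.0513).

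The next largest falls against yak were RPS19BP1 at -0.91, RPL11 at -0.86, RPL23 at -0.83, RPL18 at -0.80 and RPS4Y1 at -0.73. On the mean of all its probe sets RPS4Y1 had -0.13 and was not called (adjusted p = 0.413 in limma). RPL5 fell by 0.44 on the log2 scale (SE 0.07, adjusted p = 0.000229), with 6984, 7263 and 6550 in buffalo, against 9740, 9195 and 9270 in yak. The 2 that rose were RPL37A (0.39, SE 0.05, adjusted p = 6.45e-05) and RPS26, with 8406, 8641 and 9003 in buffalo, against 7372, 7416 and 6909 in yak (0.26, SE 0.08, adjusted p = 0.013). RPL3 had 0.24 (SE 0.18, adjusted p = 0.309).

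A gene can be read by several probe sets, and these did not always give the same answer. Of the 67 genes 18 had more than 1 probe set, and 14 had at least 2 that were bright enough to test, 33 in all. The fold changes of all tested probe sets of a gene had 1 sign in 4 of the 14 genes in castrated against intact males, in 6 in females against intact males and in 6 in females against castrated males. This held for 6 genes in yak against cattle, 5 in buffalo against cattle and 7 in buffalo against yak. Most of the second probe sets were much dimmer than the first.

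RPS3 was called in opposite directions by its own probe sets. Its second probe set had 113, 145 and 128 in yak, against 708 to 1323 in cattle and 980, 798 and 664 in buffalo. The yak minus cattle log2 fold change there was -2.61 (SE 0.16, adjusted p = 4.03e-07), and the third probe set had 0.53 (SE 0.18, adjusted p = 0.0413). In buffalo against cattle the brightest probe set gave -0.54 (adjusted p = 6.79e-05), the second -0.10 (adjusted p = 0.627) and the third 0.50 (adjusted p = 0.0351). The cause was not tested.

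**Figure D5:**
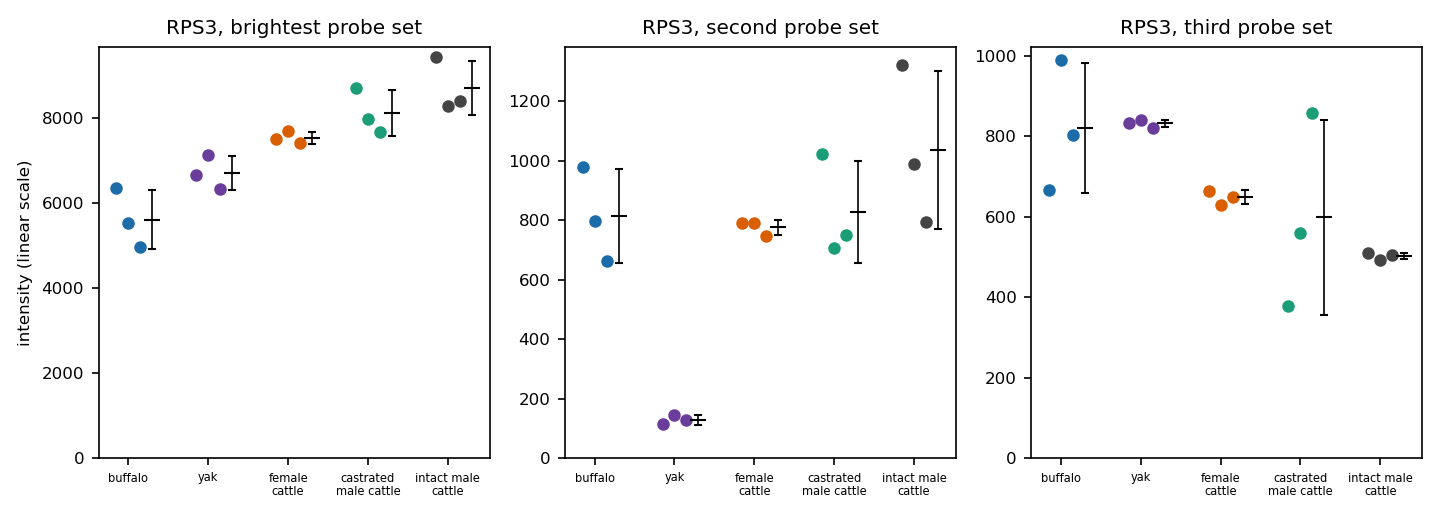
Intensity on a linear scale of the 3 probe sets of RPS3 in the 5 groups, each panel with its own axis from 0. Points are arrays, and black dashes and bars are group means ± SD (n = 3). In yak the second probe set stands at 113 to 145, below all other arrays, while the third stands at 822 to 841 and the first at 6341 to 7130.

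RPL21 had a dim probe set that was called where its brightest was not. The brightest probe set was not called in yak or in buffalo against cattle (-0.07 and -0.08). The dim one had 627, 584 and 640 in yak and 48.7, 113 and 93.7 in buffalo, against 159 to 343 in cattle (1.36, SE 0.23, adjusted p = 0.000785 in yak, and -1.34, SE 0.23, adjusted p = 0.000265 in buffalo). RPL32, of the large subunit and named after its values were seen, had 0.11 in buffalo on its brightest probe set and -1.35 (SE 0.15, adjusted p = 6.64e-06) on a dimmer one. RPL15P had -0.50, -1.59 and 0.26 on its 3 probe sets in buffalo against cattle, the last not called. The small-subunit gene RPS12 had -0.06 on its brightest probe set in buffalo, not called, and was called lower (-0.58) on a dim one and higher (0.56) on another. On the probe set with -0.58, buffalo had 65.7, 61.5 and 59.8, which overlapped the females at 68.5, 59.4 and 68.6. Castrated males had 70.4, 110 and 71.8 there, and intact males 318, 137 and 136.

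Other genes of ribosome synthesis and translation were counted for comparison. A list of 14 tested genes whose messengers carry TOP tracts held translation factors and also TPT1, RACK1, NACA and BTF3, which are not such factors. Of the 14, 0 were called by limma in castrated against intact males. At an unadjusted p under 0.05, 3 were lower (11.2% of all tested probe sets). In females against intact males 1 fell, beside 3.37% of all tested probe sets. It was EEF1A1, the factor that brings transfer RNA to the ribosome (-0.77, SE 0.14, adjusted p = 0.0231). In yak 3 fell and 1 rose of 14, beside 15.9% and 13.2% of all tested probe sets. In buffalo against cattle 11 fell, RACK1 and BTF3 included, and 0 rose, beside 28.4% and 23%, with a median of -0.42. After quantile normalisation 5 fell and 1 rose, beside 24.2% and 30.6%, with a median of -0.16. Among them EEF1D, a subunit of the exchange factor for EEF1A1, had -0.90 (SE 0.10, adjusted p = 6.34e-06), and another subunit, EEF1G, had -0.76 (SE 0.07, adjusted p = 2.05e-06).

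Of 25 tested genes of ribosome assembly, 13 rose and 4 fell in buffalo against cattle, beside 23% and 28.4% of all tested probe sets, with a median of 0.27. After quantile normalisation 15 rose and 3 fell, beside 30.6% and 24.2%. NOP56, a core protein of the particles that methylate ribosomal RNA, rose by 1.23 (SE 0.15, adjusted p = 1.75e-05). SBDS, which readies the large subunit for translation, fell by 1.21 on the log2 scale (SE 0.11, adjusted p = 1.85e-06), and IMP4, a processing factor for ribosomal RNA, fell by 0.93 (SE 0.12, adjusted p = 4.33e-05). Against yak 11 rose and 4 fell, beside 19.5% and 22.7%. In yak against cattle 2 rose and 2 fell, beside 13.2% and 15.9%. In females against intact males 1 rose, NHP2 (0.53, SE 0.13, adjusted p = 0.0464), beside 2.12% of all tested probe sets.

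A list for RNA polymerase I, which transcribes ribosomal RNA, held 8 tested genes. TAF1B, RRN3, TTF1 and MYC among them do not code for subunits of the polymerase. In buffalo against cattle 4 rose and 1 fell, beside 23% and 28.4% of all tested probe sets, and the extremes were its subunits POLR1C at 1.27 (SE 0.12, adjusted p = 1.76e-06) and POLR1D at -1.19 (SE 0.10, adjusted p = 5.77e-07). In females against intact males 1 fell, beside 3.37% of all tested probe sets. It was MYC, a transcription factor that drives ribosome synthesis (-2.75, SE 0.53, adjusted p = 0.0266). In yak 2 rose and 1 fell, beside 13.2% and 15.9%, the last RRN3, which brings the polymerase to its promoter (-1.19, SE 0.18, adjusted p = 0.000497).

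Of 13 tested genes of mTORC1 and of TOP messenger control, 3 rose and 0 fell in yak against cattle, beside 13.2% and 15.9% of all tested probe sets. These were EIF4EBP1, a repressor of cap-dependent translation that mTORC1 switches off, at 1.77 (SE 0.30, adjusted p = 0.000906), SESN1, an inhibitor of mTORC1, at 1.29 (SE 0.34, adjusted p = 0.012), and RHEB, its activator, at 0.33 (SE 0.10, adjusted p = 0.0239). In buffalo against cattle 5 fell and 1 rose, beside 28.4% and 23%, with a median of -0.27. After quantile normalisation 4 fell and 3 rose, beside 24.2% and 30.6%, with a median of -0.03. Among those that fell as deposited were the S6 kinase RPS6KB2 at -0.98 (SE 0.13, adjusted p = 3.28e-05) and RPS6KA1, another kinase of RPS6, at -1.16 (SE 0.23, adjusted p = 0.000837). None of the 13 was called by limma in castrated or in female against intact males, where 5 and 2 genes were higher at p under 0.05 without adjustment, beside 9.27% and 13.2% of all tested probe sets.

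Of the paralogues that the rule left out, RPL26L1, a copy of RPL26, rose in yak by 1.33 (SE 0.16, adjusted p = 9.21e-05) and in buffalo by 0.80 (SE 0.16, adjusted p = 0.00111) against cattle. RPL26 itself had -0.09 (SE 0.07, adjusted p = 0.332) in yak and fell by 0.24 on the log2 scale in buffalo (SE 0.07, adjusted p = 0.00943).

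Ribosomal proteins of mitochondria, a separate family of 67 tested genes that serve the ribosomes inside that organelle, had 21 higher and 3 lower in yak against cattle, beside 13.2% and 15.9% of all tested probe sets, with a median of 0.26, where the cytosolic family had 1 and 6 and a median of -0.01. In buffalo against cattle the mitochondrial family had 15 higher and 27 lower, beside 23% and 28.4%, with a median of -0.27, and 19 higher and 18 lower after quantile normalisation, beside 30.6% and 24.2%, with a median of -0.01. In castrated against intact males 0 of 67 were called by limma, with 11 higher and 0 lower at an unadjusted p under 0.05, beside 9.27% and 11.2%, and a median of 0.20, where the cytosolic family had a median of -0.11. The difference between the families was not tested.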

How the data were processed

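Longissimus dorsi RNA was extracted with Trizol, 6 µg of it was made into biotin-labelled cRNA, per the labels' protocols, and each animal had its own bovine array. The deposited values are intensities on a linear scale, for 24128 probe sets on each of 15 arrays. The authors' software and any background correction or normalisation stay not given in the sources used here. Arrays have no read depth, so their number limits the precision. The 112 control probe sets were set aside, 16 was added before log2, nothing was normalised again, and only probe sets whose mean exceeded the 40th percentile (6.42) entered the tests, 14409 of 24016.

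Genes were named from the platform annotation, which gave 1 symbol for 13318 probe sets; all 67 symbols matched the current gene table and 0 changed. Fits used limma 3.58.1 in R 4.3.3 (empirical Bayes with an intensity trend). Cattle contrasts used the 9 cattle arrays and species contrasts all 15, with two-sided p-values adjusted by Benjamini-Hochberg within each contrast and a threshold of 0.05. The steps were tested on simulated data. Named are RPSA, the P stalk, RPS6 and paralogues; per contrast up to 8 called each way, or the 6 of smallest p where under 5 were called; the 3 of largest and of smallest SD; genes whose probe sets disagree; and up to 3 called genes of each other list by p. RPL32 and RPS2 were added after their values were seen. Members and lists were chosen with earlier results of these data known. Alternatives were quantile normalisation, adding 1 or 64, no filter, no trend, the replicate number as a block, the mean of all probe sets of a gene, other cattle groups as reference and each array left out. No sequence was used.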

Additional observations from a re-analysis of the deposited data

How the results depend on the processing

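With 3 arrays a group and cattle probes, small differences near the threshold decide most counts outside buffalo, and the deposited normalisation is unknown. Counts are of the 65 genes, or of 67 without the filter, higher and lower. Percentages in brackets are the shares of all tested probe sets called in the same direction in that setting. The direction of the buffalo median was kept in all alternatives, and it moved to -0.03 against cattle and -0.04 against yak under quantile normalisation. That setting gave 12 higher in buffalo against cattle (30.6%) and 8 and 20 in buffalo against yak (23% and 19.7%). In yak against cattle it gave 2 and 3 (14.5% and 13%). It moved the medians on buffalo 1, 2 and 3 to 0.01, -0.04 and -0.08. With 64 added, 2 rose in yak (13.3%). With no filter, 1 fell in yak (11.2%), and 5 and 4 rose in buffalo against cattle and yak (29.6% and 22%). With no intensity trend, 2 fell in yak (15.7%). With castrated males and females alone as cattle, 7 rose and 2 fell in yak, beside 1663 and 2055 of 14409 tested probe sets. There 6 rose in buffalo, beside 3317 of the 14409. Each of these counts was a smaller share of the 65 genes than of all tested probe sets. With the mean of all probe sets of a gene, 1 fell in females against intact males (3.36%) and 2 rose in yak (13.2%). There 5 and 4 rose in buffalo against cattle and yak (23% and 19.6%). In that setting RPL7 turned to 0.42 in buffalo against cattle (adjusted p = 0.0144) and RPS3 to 0.74 in buffalo against yak (adjusted p = 0.00028). The mean gives every probe set of a gene equal weight, also those below the filter. The second probe set of RPL7, with a mean intensity of 42.04, was below it. Leaving out 1 array gave 0 to 3 lower (0.16% to 4.55%) in castrated against intact males. It gave 0 to 5 lower (0.416% to 8.87%) with medians of -0.15 to -0.03 in females against intact males. In yak against cattle it gave 0 to 9 higher (6.97% to 14.4%) and 0 to 9 lower (8.86% to 17.8%). In buffalo against cattle it gave 3 to 6 higher (18.4% to 24.4%) and 27 to 37 lower (24.4% to 30.2%). In buffalo against yak it gave 1 to 2 higher (14.1% to 18.5%) and 26 to 32 lower (18.3% to 20.8%). Without intact male 1, 6 rose in buffalo against cattle (24.4%), and without yak 3, 1 rose in buffalo against yak (16.8%). Replicate numbers are shared between groups in the labels. The 30 same-numbered pairs had correlations of their deviations from -0.33 to 0.15 over all tested probe sets. As deposited, however, the median over the 65 genes decreased from replicate 1 to replicate 3 in every group. Whether the numbers pair the animals was not tested. With the replicate number as a block, 5 rose in yak (12.5%) and 3 fell in females against intact males (2.6%). In buffalo against cattle 34 fell and 3 rose with that block (27.8% and 22.2%). Of the values for single genes and arrays, 1331 kept their direction and side of the threshold, 84 lost a call and 23 gained one.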
